A study of Homo sapiens with 3 samples.

Results

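The let-7 passenger arms are the 3p strands cut from the let-7 hairpins, the strands that face the let-7 guides in the stem. They were taken by name from the deposited list of mature miRNAs: hsa-let-7a-3p, hsa-let-7a-2-3p, hsa-let-7b-3p, hsa-let-7c-3p, hsa-let-7d-3p, hsa-let-7e-3p, hsa-let-7f-1-3p, hsa-let-7f-2-3p, hsa-let-7g-3p and hsa-let-7i-3p, 10 of 2588 listed miRNAs, and each was set beside the 5p arm of its hairpin. The libraries came from SK-MEL-2, an established human melanoma line. Its cells received no treatment, a 3 min exposure or a 5 min exposure to a plasma jet, in which partly ionised gas is blown onto the cells without strong heating. RNA was taken on Day 2, after a further culture period that followed the exposure. Each of the 3 groups was 1 library of 1 cell line, so no difference could be tested against replicates, and every interval below is a 95% interval for counting error alone.

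A let-7 precursor is cut by Dicer into a short duplex of a 5p and a 3p strand. The 5p strand is usually loaded into Argonaute, where it represses growth genes such as the RAS genes, HMGA2 and MYC, while the 3p strand is mostly discarded and stays scarce. Argonaute favours a strand that begins with U or A and whose 5′ end is the less tightly paired one. In many tumours let-7 output is low, and LIN28 proteins block the maturation of its precursors.

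The sequences are shown to let the passenger arms be compared with one another and with the guides. RefSeq, on GRCh38.p14, gave mature sequences for 9 of the 10 passenger arms and for all 8 guides; let-7f-2-3p is named only. Capitals mark the seed, bases 2 to 8, the part that pairs with a target. The sequences run 5′ to 3′.
let-7a-3p: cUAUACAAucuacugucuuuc
let-7b-3p: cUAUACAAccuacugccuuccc
let-7f-1-3p: cUAUACAAucuauugccuuccc
let-7d-3p: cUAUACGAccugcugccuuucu
let-7e-3p: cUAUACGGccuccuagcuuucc
let-7c-3p: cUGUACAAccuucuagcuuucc
let-7a-2-3p: cUGUACAGccuccuagcuuucc
let-7g-3p: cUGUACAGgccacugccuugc
let-7i-3p: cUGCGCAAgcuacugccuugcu
let-7a-5p, a guide: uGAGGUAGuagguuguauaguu
let-7d-5p, a guide: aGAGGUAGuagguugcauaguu

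The 9 passenger sequences held 6 different seeds. let-7a-3p, let-7b-3p and let-7f-1-3p shared UAUACAA, let-7a-2-3p and let-7g-3p shared UGUACAG, and the other 4 each had their own. The 8 guides all carried GAGGUAG. All 9 passenger arms began with C, while 7 guides began with U and let-7d-5p with A. Compared base by base from the 5′ end, pairs of these 9 passenger arms differed at a median of 6 positions and at no fewer than 2. The closest were let-7b-3p with let-7f-1-3p, let-7a-2-3p with let-7c-3p, and let-7a-2-3p with let-7e-3p. let-7f-2-3p had no mature sequence and was not in this comparison. Its hairpin, MIRLET7F2, holds a stretch that differs from let-7a-3p only at the last base of the seed. Pairs of guides differed at a median of 3 positions, and 4 of their 28 pairs at a single one. Among the sequences compared, reads of the guides are therefore easier to assign to the wrong member than reads of the passenger arms. How reads that match several miRNAs were counted is not given in the sources used here. Separate guide values, and the split of counts between let-7a-3p and let-7f-2-3p, are uncertain for that reason.

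The hairpins of the most abundant passenger arms follow, with both mature arms in capitals, the guide to the left.
MIRLET7A1: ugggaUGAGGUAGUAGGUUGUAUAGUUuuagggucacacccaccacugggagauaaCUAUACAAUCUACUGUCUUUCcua
MIRLET7A3: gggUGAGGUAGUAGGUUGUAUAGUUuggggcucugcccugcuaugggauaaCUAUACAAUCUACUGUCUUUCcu
MIRLET7B: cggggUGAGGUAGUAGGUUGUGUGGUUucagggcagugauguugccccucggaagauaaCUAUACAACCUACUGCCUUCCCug
MIRLET7D: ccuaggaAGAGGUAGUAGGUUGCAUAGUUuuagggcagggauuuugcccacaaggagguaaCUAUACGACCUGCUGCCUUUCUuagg

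MIRLET7A1 (chr9:94175957-94176036, plus strand), MIRLET7F1 (chr9:94176347-94176433) and MIRLET7D (chr9:94178834-94178920) lie together in an intron of the long noncoding RNA AL158152.2 in GENCODE release 29. MIRLET7A3 (chr22:46112749-46112822, plus strand) and MIRLET7B (chr22:46113686-46113768) lie 863 bases apart, and both overlap exons of MIRLET7BHG. let-7a-3p is cut from both MIRLET7A1 and MIRLET7A3, so its count cannot be divided between chromosomes 9 and 22. MIRLET7A2 (chr11:122146522-122146593, minus strand), the source of let-7a-2-3p, lies in an intron of MIR100HG. MIRLET7C (chr21:16539828-16539911, plus strand) is intronic to MIR99AHG and MIRLET7E (chr19:51692786-51692864, plus strand) to SPACA6. MIRLET7F2 (chrX:53557192-53557274, minus strand) lies in an intron of HUWE1, MIRLET7G (chr3:52268278-52268361, minus strand) in an intron of WDR82, and MIRLET7I (chr12:62603686-62603769, plus strand) in an intron of the noncoding AC048341.1.

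Library totals were 1045482, 966943 and 615645 counts in the control, 3 min and 5 min libraries, so a single count was worth 0.957, 1.03 and 1.62 CPM, that is, counts scaled to a common library total. The 3 melanocyte-linked markers were present and summed to 4055, 4074 and 2461 counts, with miR-204-5p at 2608, 2535 and 1257, miR-146a-5p at 1319, 1442 and 1139, and miR-211-5p at 128, 97 and 65. The 4 epithelial markers summed to 15, 23 and 40 counts. Of these, miR-200b-3p had 6, 13 and 20 and miR-200c-3p 6, 8 and 17. miR-200a-3p, at 2, 2 and 2, and miR-141-3p, at 1, 0 and 1, were too scarce to be told from 0. The 3 muscle markers summed to 1, 3 and 15, with miR-1-3p at 0, 3 and 15, miR-133a-3p at 1, 0 and 0, and miR-206 at 0. Of the 4 blood markers, which summed to 5, 13 and 5, miR-223-3p was at 0. The liver marker miR-122-5p had 114, 117 and 76 counts and the endothelial pair summed to 327, 327 and 233. The epithelial and muscle sums and the depth moved with exposure, and their part in the differences below was not tested.

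Passenger arms made up a small part of let-7. Together the 10 arms had 1539, 1314 and 652 counts in the control, 3 min and 5 min libraries, or 0.147%, 0.136% and 0.106% of each library. The 5p arms took 25.6%, 24.8% and 24.1% in the same order. Adapter ligation favours some RNA ends over others, so the ratio between arms within a library is not a molar ratio, while its change between libraries is less affected. In such bulk RNA, fewer cells of a kind and less of an RNA per cell cannot be told apart.

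hsa-let-7a-3p was the most abundant passenger arm in the control, with 663 counts (634 CPM, exact Poisson interval 587 to 684). It had 468 counts in the 3 min library (484 CPM, 441 to 530) and 208 in the 5 min library (338 CPM, 294 to 387). The 3 intervals did not overlap, and the order followed the length of exposure.

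hsa-let-7d-3p had 470 counts in the control (450 CPM, 410 to 492), 561 in the 3 min library (580 CPM, 533 to 630) and 253 in the 5 min library (411 CPM, 362 to 465). Its highest level was thus the one after 3 min, and it was the most abundant passenger arm in both exposed libraries, although its interval overlapped that of let-7a-3p at 5 min. let-7a-3p and let-7d-3p together held 73.6%, 78.3% and 70.7% of all passenger counts in the control, 3 min and 5 min libraries.

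hsa-let-7b-3p, which lies beside MIRLET7A3 on chromosome 22, had 196, 122 and 64 counts in that order, or 187.5 CPM (162 to 216), 126 CPM (105 to 151) and 104 CPM (80.1 to 133). Both exposed values lay below the control interval, while their own intervals overlapped. hsa-let-7f-1-3p, from the chromosome 9 cluster, had 85, 55 and 52 counts, or 81.3, 56.9 and 84.5 CPM, and was lowest after 3 min.

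The other 4 arms that could be measured were near one another and their intervals overlapped in every library. let-7e-3p had 33, 34 and 16 counts, let-7i-3p 33, 20 and 14, let-7f-2-3p 32, 30 and 22, and let-7c-3p 24, 21 and 21. The remaining pair was at or under the floor of 3 counts, below which a value cannot be told from 0. let-7a-2-3p had 1, 3 and 2 counts and let-7g-3p 2, 0 and 0, where by that floor a count of 0 allows up to 3.10 CPM after 3 min and 4.87 CPM after 5 min. No fold is given for this pair.

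**Figure D1:**
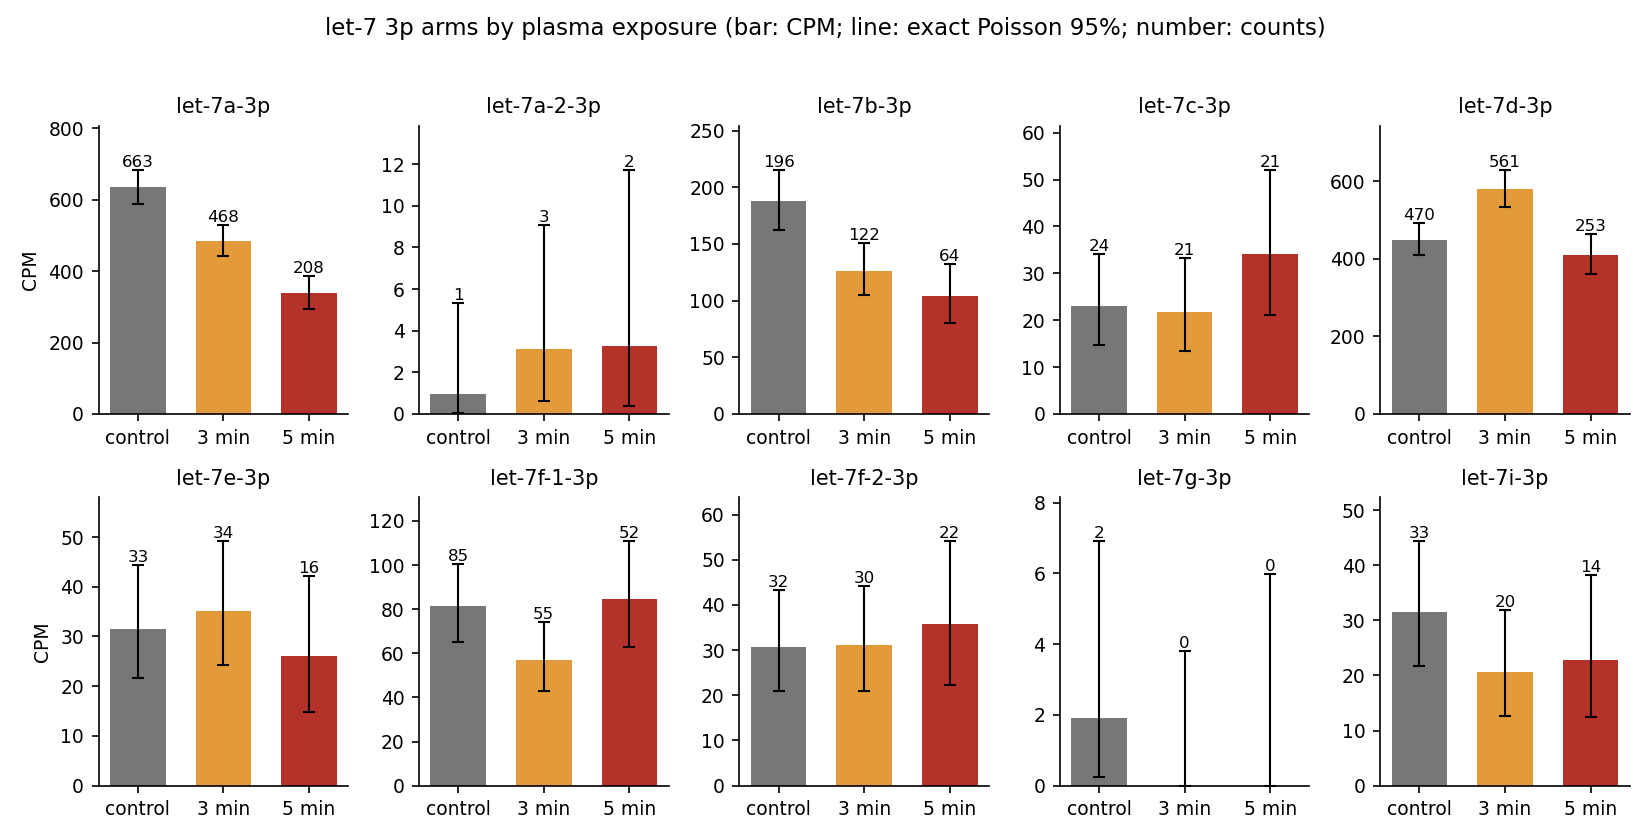
Level of each let-7 3p arm in CPM (vertical axes from 0, each panel with its own scale) in the control, 3 min and 5 min libraries. Lines are exact Poisson 95% intervals and the numbers are counts; let-7a-3p has 663, 468 and 208 and let-7d-3p peaks at 561 after 3 min.

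The rule asked for each passenger arm beside its guide. let-7a-5p comes from 3 hairpins and let-7f-5p from 2, so let-7a-3p was summed with let-7a-2-3p and let-7f-1-3p with let-7f-2-3p. The 3p share of 3p plus 5p counts differed between hairpin groups far more than between libraries. let-7d, the only group whose guide begins with A, had the highest share, at 7.31% in the control (exact binomial interval 6.68 to 7.97), 8.05% in the 3 min library (7.42 to 8.72) and 6.30% in the 5 min library (5.57 to 7.10).

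let-7a followed at 3.34% in the control (3.10 to 3.60), 2.49% at 3 min (2.27 to 2.72) and 1.97% at 5 min (1.72 to 2.25). These 3 intervals for let-7a stood clear of one another. let-7b had 1.79% (1.55 to 2.05), 1.21% (1.01 to 1.44) and 1.19% (0.918 to 1.52), with both exposed shares below the control interval.

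let-7e had 1.41%, 1.67% and 1.40%, let-7f 0.175%, 0.144% and 0.180%, and let-7c 0.101%, 0.105% and 0.183%, each with overlapping intervals. let-7i has the most abundant guide of the family, with 111578 control counts, yet its passenger arm held only 0.0296%, 0.0205% and 0.0240%. let-7g had 0.00726% in the control (0.000879 to 0.0262), from 2 counts against 27537, and no 3p count after exposure, which by the floor of 3 counts allows up to 0.0112% after 3 min and 0.0177% after 5 min. The exact intervals of let-7g and let-7i overlapped in every library, so their order is not resolved.

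**Figure D2:**
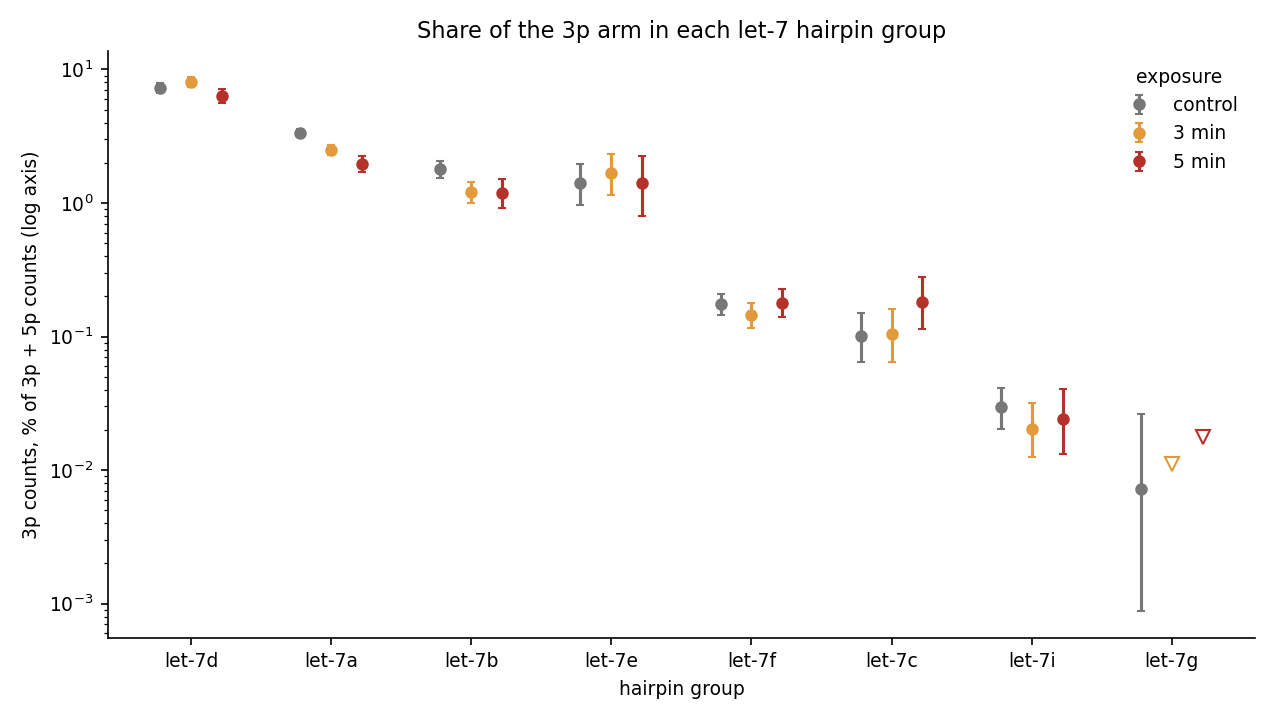
Share of 3p counts in 3p plus 5p counts (percent, log axis) for each let-7 hairpin group in the control, 3 min and 5 min libraries, with exact binomial 95% intervals; open triangles mark the limit that a count of 0 allows. Groups run from let-7d at 7.31% to let-7g at 0.00726% in the control, and let-7a steps down at each exposure.

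Among 49 other hairpin groups whose arms both averaged at least 20 counts, the minor arm held a median of 11.4% of the control counts. The summed let-7 passenger share of 0.571% lay above 4 of them. The let-7i share lay above 1, the miR-21 group, whose minor arm held 0.00848%. The let-7d share, at the other end, lay above 18. Hairpins with a scarcer minor arm fell outside this filter. Among them were miR-99a, with 1 minor count against 34423 in the control, and miR-100, with 3 against 6008. The median and these ranks therefore describe groups whose minor arm could be counted. Groups were paired by name and not checked for overlapping hairpins, so the 49 may not all be separate loci.

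Levels were then compared between libraries on the TMM scale of edgeR, for the 231 miRNAs that averaged 20 counts or more over the libraries, of which 8 were passenger arms. A size of 1.5-fold stood in for a test.

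After the 3 min exposure, let-7a-3p and let-7b-3p stood below control and let-7d-3p above it. let-7b-3p was 1.47-fold lower (1.17 to 1.86). let-7a-3p was 1.30-fold lower (1.15 to 1.46) and let-7d-3p 1.30-fold higher (1.15 to 1.48). let-7f-1-3p was 1.42-fold lower (0.997 to 2.03) and let-7i-3p 1.51-fold lower (0.843 to 2.78), with intervals that included no difference. let-7e-3p, let-7f-2-3p and let-7c-3p had log2 ratios of 0.17, 0.03 and -0.07, and the sign of let-7f-2-3p changed with the scaling.

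By size alone, let-7i-3p was the 1 passenger arm of 8 at least 1.5-fold lower after 3 min (12.5%), against 5.19% of all measured miRNAs, and no arm was that much higher, against 6.93%. At 2-fold none passed in the lower direction, against 0.866%, or in the higher one, against 2.16%. That call rested on 20 counts against 33. Under other scalings let-7b-3p passed as well. The median log2 ratio of the 8 arms was -0.22, beside 0.05 over all measured miRNAs and 0.05 over 51 minor arms of other hairpins.

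After the 5 min exposure the largest differences were those of the same pair of arms. let-7a-3p was 1.89-fold lower (1.62 to 2.22), on 208 counts against 663, and let-7b-3p was 1.82-fold lower (1.36 to 2.45), on 64 counts against 196. let-7d-3p had a ratio of 0.907 (0.775 to 1.06), and the third arm with the UAUACAA seed, let-7f-1-3p, a ratio of 1.03 (0.716 to 1.47) whose sign on the log2 scale changed with the scaling.

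The 4 scarcer arms had wide intervals. let-7c-3p was at 1.47 times control (0.781 to 2.76), let-7f-2-3p at 1.16 (0.641 to 2.06), let-7e-3p at 0.817 (0.420 to 1.53) and let-7i-3p at 0.715 (0.353 to 1.37). Of the 8 arms, 2 were at least 1.5-fold lower (25.0%), against 11.7% of all measured miRNAs, and no arm was at least 1.5-fold higher, against 17.3%. No arm reached 2-fold in the lower direction, against 3.46%, or in the higher one, against 9.52%. This held on 5 of 7 scalings; with DESeq2 size factors or TMM over all listed miRNAs, let-7a-3p and let-7b-3p were 2-fold lower, as were 7.36% and 6.93% of all measured miRNAs. Their median log2 ratio was -0.22, beside 0.05 over all measured miRNAs and -0.02 over the minor arms of other hairpins, of which 17.6% were at least 1.5-fold lower.

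The guides of let-7a and let-7b stood closer to control than their passenger arms. After 5 min let-7a-5p had a ratio of 0.917 (0.895 to 0.939) and let-7b-5p of 0.831 (0.804 to 0.858), against 0.529 and 0.550 for their passenger arms. let-7d-5p had 1.06 (1.02 to 1.11). let-7f-5p and let-7g-5p were both at 1.04, let-7i-5p at 0.882, let-7e-5p at 0.823 and let-7c-5p at 0.815. The let-7e and let-7f guides lay about as far from control as let-7e-3p at 0.817 and let-7f-1-3p at 1.03. The 8 guides summed had 0.935 (0.929 to 0.941), against 0.714 (0.650 to 0.783) for the 10 passenger arms summed. After 3 min let-7a-5p had 1.05 (1.03 to 1.07) and let-7b-5p 1.01 (0.981 to 1.04), so their passenger arms were the lower of the arms at both exposures. For let-7d both arms stood above control after 3 min, let-7d-5p at 1.17 (1.13 to 1.215) and let-7d-3p at 1.30 (1.15 to 1.48). Both exposures are set against the same control library, so they are not independent of each other.

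**Figure D3:**
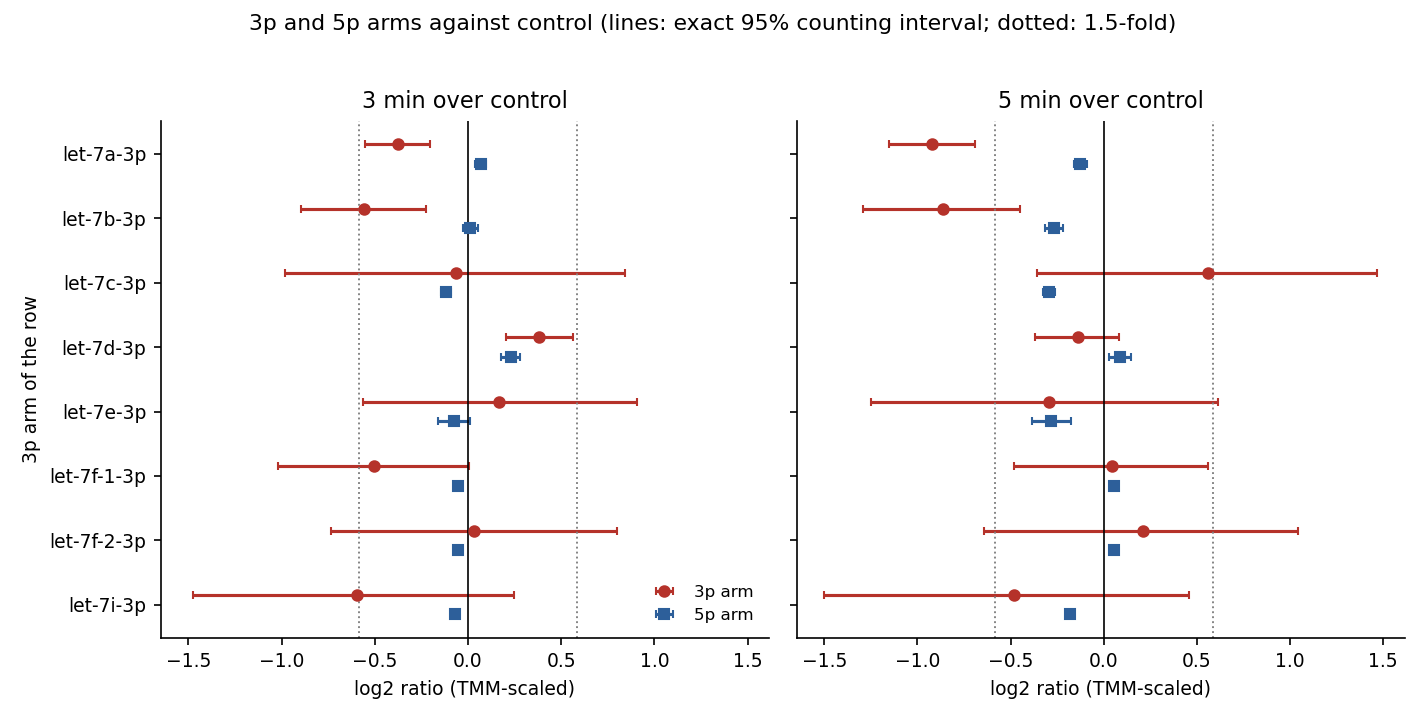
TMM-scaled log2 ratios to control of the 8 measured 3p arms (circles) and of the 5p arm of the same hairpin (squares), after 3 min at left and 5 min at right, with exact 95% counting intervals and dotted lines at 1.5-fold. let-7a-3p at -0.92 and let-7b-3p at -0.86 lie past the lower line after 5 min, while all 5p arms lie between the lines.

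The ratio of the arms within a library needs no scaling. For let-7a the 3p to 5p ratio was at 0.581 of its control value after 5 min (0.494 to 0.681) and at 0.738 of it after 3 min (0.654 to 0.834). For let-7b it was at 0.663 (0.491 to 0.885) and 0.674 (0.532 to 0.850). For let-7d the value was 0.853 at 5 min (0.725 to 1.002) and 1.11 at 3 min (0.976 to 1.27), and both intervals included 1. let-7c had 1.81 after 5 min (0.958 to 3.39) on 21 passenger counts against 24.

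Over all let-7 hairpins the 3p share was 0.437% after 5 min (0.404 to 0.472), against 0.571% in the control (0.543 to 0.600), a log2 change of -0.39 (-0.52 to -0.26) in the ratio of the arms. After 3 min the share was 0.544% (0.515 to 0.575), with a log2 change of -0.07 (-0.18 to 0.04). Without let-7a and let-7f, whose guides come from several hairpins, the 5 min change was -0.14 and the 3 min change 0.16.

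Arm balance also moved in other hairpins. After 5 min the ratio of the arms was at least 1.5-fold lower in 2 of the 7 measured let-7 groups, let-7a and let-7b, and in 10 of the 49 others, 21.4% of all 56 groups. It was at least 1.5-fold higher in 1, let-7c, against 16.1% of the 56. Of the 49 others, 6 had a lower log2 change than let-7a at -0.78, and 9 a lower one than let-7b at -0.59. After 3 min no let-7 group was 1.5-fold lower, against 1.79%, and none was 1.5-fold higher, against 7.14%; let-7b at -0.57 then stood above 1 other group and let-7a at -0.44 above 5.

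**Figure D4:**
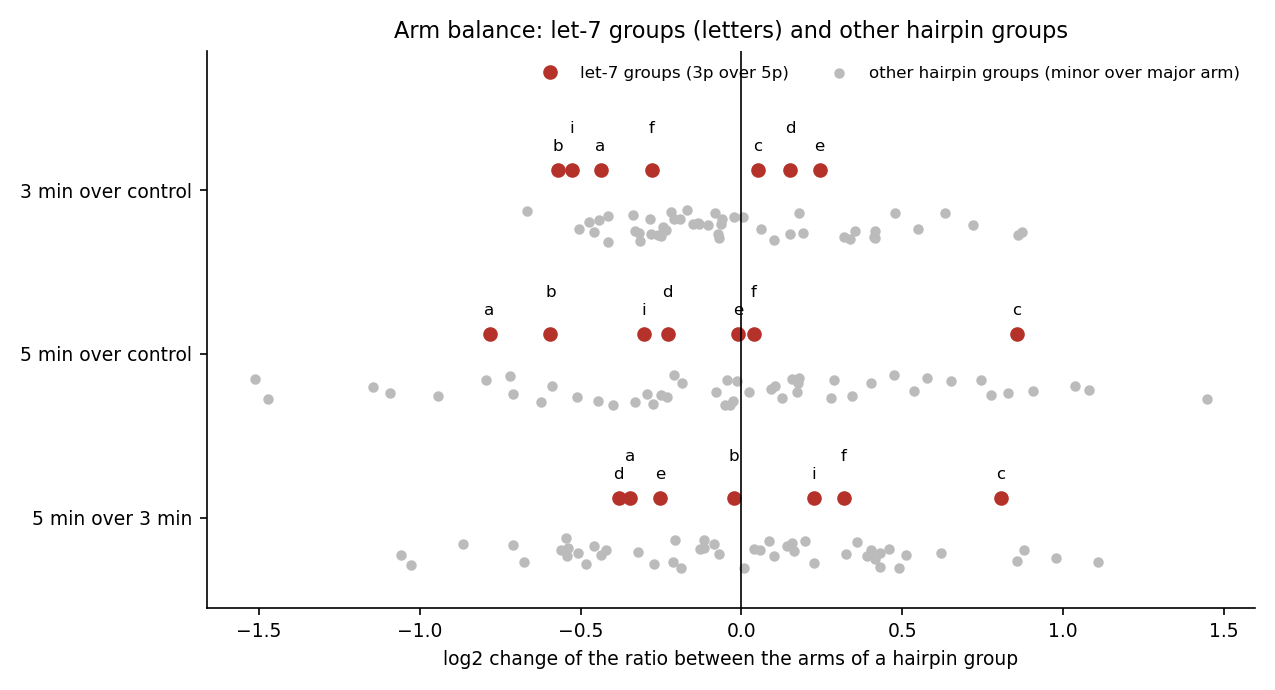
Log2 change of the ratio between the arms of a hairpin group in 3 comparisons, for 7 let-7 groups (letters, 3p over 5p) and 49 other groups (grey, minor over major arm). After 5 min let-7a (-0.78) and let-7b (-0.59) lie toward the low end of the others, whose values run from -1.51 to 1.45, and let-7c (0.86) toward the high end.

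The comparison of 5 min with 3 min plasma gave let-7a-3p 1.46-fold lower (1.24 to 1.72) and let-7d-3p 1.44-fold lower (1.24 to 1.67), just inside the 1.5-fold size. let-7b-3p was 1.23-fold lower (0.905 to 1.70). let-7f-1-3p was at 1.46 times the 3 min level (0.980 to 2.17), and let-7c-3p at 1.54 times (0.802 to 2.97), the 1 arm of 8 at least 1.5-fold higher (12.5%), against 13.0% of all measured miRNAs. None was at least 1.5-fold lower, against 8.66%. With DESeq2 size factors over all listed miRNAs, which moved the median of all measured miRNAs to -0.12 on the log2 scale, 3 arms were lower, against 15.2% of all, and let-7c-3p no longer passed. TMM over all listed miRNAs gave 2 lower, against 13.4%, and let-7c-3p did not pass there either. At 2-fold none passed on any of the 7 scalings; with TMM over the filtered miRNAs 0.866% of all measured miRNAs were lower and 6.49% higher. The ratio of the arms was at least 1.5-fold lower in none of the 7 let-7 groups, against 8.93% of the 56, and at least 1.5-fold higher in let-7c, against 10.7%.

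Counts of passenger arms can also be set against one another within a library, which again needs no scaling. The counts of let-7a-3p for each count of let-7d-3p were 1.41, 0.834 and 0.822 in the control, 3 min and 5 min libraries. This ratio was 1.69-fold lower after 3 min than in the control (1.42 to 2.01) and 1.72-fold lower after 5 min (1.37 to 2.15). For 5 min over 3 min its change was 0.986 (0.785 to 1.24).

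let-7a-3p and let-7b-3p stood in a similar proportion throughout, with 3.38, 3.84 and 3.25 counts of let-7a-3p for each of let-7b-3p in the control, 3 min and 5 min libraries. The change was 0.961 for 5 min over control (0.690 to 1.35) and 1.13 for 3 min over control (0.872 to 1.48). Against let-7f-1-3p, whose hairpin lies 310 bases from MIRLET7A1, the proportion of let-7a-3p was 7.80, 8.51 and 4.0. It was 1.95-fold lower after 5 min than in the control (1.31 to 2.89) and at 1.09 after 3 min (0.751 to 1.59).

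The let-7 hairpins lie near those of other miRNAs, and 15 arms of such companions had been listed, 10 of which could be measured. The lowest was miR-125b-1-3p, a passenger arm from the MIR100HG locus that also holds MIRLET7A2, with a ratio of 0.468 at 5 min (0.435 to 0.502) and of 0.708 at 3 min (0.671 to 0.746). It was the 1 companion of 10 at least 1.5-fold lower after 5 min (10.0%, near the 11.7% of all measured miRNAs), and no companion was 1.5-fold higher, against 17.3%. miR-99b-5p, a guide beside let-7e, lay just inside that size at 0.670 (0.639 to 0.702). After 5 min miR-99b-3p and miR-125a-3p, both beside let-7e, had 0.818 (0.742 to 0.901) and 1.39 (1.05 to 1.83). miR-125b-2-3p, listed with let-7c though its distance was not measured, had 1.01 (0.721 to 1.39). The other companion guides had ratios of 0.793 for miR-99a-5p, 0.855 for miR-100-5p, 0.929 for both miR-98-5p and miR-125b-5p, and 1.23 for miR-125a-5p. miR-99a-3p had 1, 2 and 0 counts and miR-100-3p 3, 2 and 1. miR-98-3p, the passenger arm of a let-7 relative next to MIRLET7F2, carries the UAUACAA seed as well (cUAUACAAcuuacuacuuuccc) and had 27, 21 and 10 counts, too few on average to be measured. miR-4763-3p, listed beside let-7b, had no count, and miR-4763-5p had 1, in the 5 min library.

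The 5 measured miRNAs nearest to let-7a-3p, by Euclidean distance in the log2 ratios of 3 min and 5 min to control over the 3 libraries, were miR-27b-5p at 0.00884, miR-503-3p at 0.126, miR-1260b at 0.189, let-7b-3p at 0.190 and miR-365a-3p at 0.212. miR-27b-5p, itself a minor arm, had 125, 88 and 39 counts in the control, 3 min and 5 min libraries. Nearest to let-7d-3p were miR-326 at 0.0879, miR-503-5p at 0.172, miR-22-3p at 0.188, miR-92a-3p at 0.194 and miR-221-5p at 0.197. miR-22-3p, one of the better counted of these, had 1598, 1801 and 967 counts. miR-326 had only 30, 37 and 17, and miR-503-5p 33, 40 and 20. Their ratios of 3 min to control were 1.35 (0.809 to 2.26) and 1.32 (0.813 to 2.165). Counting error was not carried into the distances, so the order of near miRNAs is not resolved.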

How the data were processed

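Small RNA was sequenced from SK-MEL-2 cells in 3 groups of 1 library each. The deposited values are raw whole-number counts per mature miRNA. Libraries were made from Trizol-extracted RNA with a NEBNext kit for small RNA, per the labels' protocols. The authors used edgeR, bedtools and Bowtie2, per the submitters' processing notes, which list neither roles nor versions. Not given in the sources used here: genome build, miRNA annotation, trimming, strand and the treatment of reads with several matches.

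From these counts, TMM factors were computed with edgeR 4.0.16 in R 4.3.3 over the miRNAs that averaged 20 counts or more. Ratios carry exact (Clopper-Pearson) 95% intervals, levels exact Poisson intervals, and ratios between arms exact conditional intervals (scipy 1.17.1, Python 3.11.15). Intervals and the floor of 3 counts cover counting error only, since PCR copies are not separate molecules. The intervals of ratios between libraries and between arms were tested on simulated counts with known folds. That simulation held counting error only, and the TMM and DESeq2 scalings were not part of it. DESeq2 1.42.0 size factors served as alternative scaling. Arms of other hairpins were paired by name. All members, their guides and listed companions are named, and 5 nearest miRNAs for each of the 2 most abundant members. Members and lists were chosen with earlier results of these data known. Sequences come from RefSeq on GRCh38.p14 and host genes from GENCODE release 29.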

Additional observations from a re-analysis of the deposited data

How the results depend on the processing

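No paired analysis was possible because each group is 1 library. For the same reason no library could be left out. Across 7 scalings, let-7a-3p and let-7b-3p were at least 1.5-fold lower after 5 min in each, with log2 ratios of -1.13 to -0.91 and -1.07 to -0.85. DESeq2 size factors and TMM over all listed miRNAs moved the median log2 ratio of all measured miRNAs after 5 min to -0.16 and -0.12, against 0.05. The count of passenger arms at least 1.5-fold lower after 3 min, 1 by TMM over the filtered miRNAs, was 2 with DESeq2 size factors over all listed or over the filtered miRNAs and with TMM over all listed ones, and 0 with a mean of at least 100 counts. For 5 min over 3 min, 3 arms were lower and 0 higher with DESeq2 size factors over all listed miRNAs, and 2 lower and 0 higher with TMM over all listed ones; with a mean of at least 100 counts 0 were higher. At a size of 2-fold with TMM over the filtered miRNAs, 0 arms were lower in either comparison with control and 0 higher in 5 min over 3 min. Dropping the filter changed no count, since let-7a-2-3p and let-7g-3p have no fold.

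The summed passenger share depends on which hairpins enter. In the control, 3 min and 5 min libraries it was 0.954%, 0.900% and 0.702% without let-7i, 0.406%, 0.321% and 0.275% without let-7d, and 0.415%, 0.464% and 0.378% without let-7a and let-7f. The log2 change of the ratio of the arms after 3 min was -0.34 without let-7d, 0.16 without let-7a and let-7f and 0.26 without let-7a and let-7b; after 5 min these were -0.57, -0.14 and -0.005. Leaving out let-7a and let-7b was chosen after their low ratios were seen, so those values restate that choice. The members left out have shares and changes that differ from the rest, as given above for each. Depth limits the 4 arms with means of 22 to 28 counts and the pair under the floor.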
